A study of Mus musculus with 4 samples.

Results

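The genes described here are named for proteins of the mitochondrial ribosome and were chosen by name. The rule took every gene symbol in the deposited tables that begins with Mrpl or Mrps and goes on with a number and any letters. It found 78 of the 32285 genes, 49 named for the large subunit (Mrpl) and 29 for the small subunit (Mrps). It used no measured value. Ribosome subunits with other names fall outside the rule. Mrps36 falls inside, though its product is no longer counted as a ribosomal protein. Nuclei came from brain without the cerebellum of wild-type C57BL/6 mice aged 10 weeks, and libraries were made with the SeekOne DD droplet kit, which tags transcripts at their 3' end with unique molecular identifiers (UMIs). The series compared how the tissue was taken and whether the nuclei were fixed, with 1 library for each of the 4 combinations.

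In the post-mortem groups the mice were killed by cervical dislocation, and in the in vivo groups the brain was taken by craniotomy under deep isoflurane anaesthesia. All brains were frozen on dry ice for 10 min, and up to 50 mg of tissue was used for an extraction. Unfixed nuclei went straight to droplet capture. Fixed nuclei were held in 80% methanol at -20 °C for 30 min and were then spun and resuspended in the buffers of a fixation kit, so methanol and that extra handling cannot be told apart. Harvest cannot be told apart from the animal or the piece of tissue. The sources used here do not say whether the fixed and unfixed nuclei of a harvest came from the same brain. Fixation therefore cannot be told apart from the animal or the piece of tissue either. Values below are given in the order post-mortem unfixed, in vivo unfixed, post-mortem methanol and in vivo methanol. With 1 library a group there is no spread between replicates, and no test was made: each ratio compares 2 libraries, and intervals are 95% intervals for counting error only.

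Mitochondria carry their own ribosome, which translates the few proteins encoded by mitochondrial DNA, all of them core subunits of the respiratory chain and ATP synthase. Its RNAs are made inside the organelle, but every one of its proteins is encoded in the nucleus, translated in the cytosol and imported. Many of these proteins have a counterpart in bacterial ribosomes, and others were added in the lineage leading to animals. In brain the products of this machinery serve the oxidative metabolism on which neuronal signalling depends.

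Kept nuclei numbered 12492, 15026, 9823 and 6814, with 51632095, 51560423, 66030848 and 59619803 UMIs. Median UMIs per nucleus were 3789.5, 3019, 6298 and 7816, so depth per nucleus moved with fixation. Scrublet marked 8.98% to 15.8% of the barcodes as doublets. Between 41 and 145 barcodes were shared by any pair of libraries, at most 1.16% of a library. In nuclei a level reflects unspliced and spliced RNA together, and over all nuclei fewer cells of a type and less RNA per cell cannot be told apart.

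The members are short genes. Their median length was 7.90 kb from the first to the last annotated base, against 29.5 kb for the 12484 protein-coding genes compared, and they had a median of 5 exons against 10. The range ran from 0.789 kb for Mrpl34 (chr8:71464959-71465747, plus strand, GRCm38) to 122 kb for Mrps28 (chr3:8802146-8923918, minus strand), where 99.4% of the gene is intron. In 13 of the 78 members (16.7%) introns made up under 25% of the gene, as in 4.58% of the protein-coding genes; these were Mrpl17, Mrpl32, Mrpl34, Mrpl41, Mrpl43, Mrpl51, Mrpl53, Mrpl57, Mrps2, Mrps17, Mrps26, Mrps30 and Mrps34. The 25% limit was chosen after values had been seen.

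Many members begin beside another gene that runs the other way. For 37 of 78 (47.4%) an annotated start on the opposite strand lay within 1 kb, against 23.6% of the protein-coding genes, and 30 members (38.5%) overlapped a gene on the opposite strand, against 37.3%. Several neighbours also act in mitochondria: Mrps12 starts 172 bp from Sars2 (mitochondrial seryl-tRNA synthetase), Mrpl36 starts 29 bp from Ndufs6 and Mrpl47 615 bp from Ndufb5 (both subunits of complex I), and Mrpl43 starts 779 bp from Twnk (the helicase of mitochondrial DNA). By the outermost ends in GENCODE, the members Mrps11 and Mrpl46, of the small and the large subunit, start 412 bp apart and overlap each other. The RefSeq starts behind their promoters, printed below, differ from these ends, so distance and overlap of both genes depend on the annotation. The strand setting of the authors' counting was not given in the sources used here, so UMIs of overlapping genes, these 2 included, are uncertain. Reads that also match processed copies elsewhere in the genome could be split in ways the sources do not state.

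RefSeq promoters, 250 bases before to 50 after a start on GRCm38.p6, were matched by symbol to 69 members (75 promoters). The 5 printed here show how members share starts with other genes and where 3 motifs lie: GCGCATGCG, a core of sites bound by NRF1, CCGGAAGT, a core of sites bound by ETS factors such as GABPA, and AAGATGGC, a core of sites bound by YY1. All were searched on both strands, and matches are in capitals. In Mrpl32 the NRF1 letters match on both strands with overlap, which gives 1 longer run of capitals. The promoter of Mrps11 lies at chr7:78782881-78783180 (plus strand) and that of Mrpl46 at chr7:78783040-78783339 (minus strand), so that the stretch they share is printed once on each strand. That of Mrpl32, which starts 75 bp from Psma2, a proteasome subunit, lies at chr13:14612988-14613287 (minus strand). That of Mrps26 lies at chr2:130563507-130563806 (plus strand), and that of Mrps27, which starts 81 bp from Ptcd2, at chr13:99344536-99344835 (plus strand).
Mrps11: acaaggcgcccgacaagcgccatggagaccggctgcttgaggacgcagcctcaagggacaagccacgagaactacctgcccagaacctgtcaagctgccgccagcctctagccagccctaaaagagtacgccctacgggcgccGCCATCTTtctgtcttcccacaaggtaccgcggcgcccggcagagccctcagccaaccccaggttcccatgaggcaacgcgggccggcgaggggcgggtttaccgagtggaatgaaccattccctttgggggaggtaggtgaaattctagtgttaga
Mrpl46: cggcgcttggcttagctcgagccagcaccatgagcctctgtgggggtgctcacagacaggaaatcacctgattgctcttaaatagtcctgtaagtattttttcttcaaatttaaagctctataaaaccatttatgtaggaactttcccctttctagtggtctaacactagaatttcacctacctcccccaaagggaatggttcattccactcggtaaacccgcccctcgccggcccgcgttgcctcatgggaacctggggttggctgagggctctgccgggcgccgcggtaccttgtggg
Mrpl32: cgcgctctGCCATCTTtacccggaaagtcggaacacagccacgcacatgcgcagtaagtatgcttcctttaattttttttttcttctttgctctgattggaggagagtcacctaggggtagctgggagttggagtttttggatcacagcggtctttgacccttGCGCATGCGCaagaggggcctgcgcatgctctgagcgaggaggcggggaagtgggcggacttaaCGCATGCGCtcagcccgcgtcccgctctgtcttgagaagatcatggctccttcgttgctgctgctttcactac
Mrps26: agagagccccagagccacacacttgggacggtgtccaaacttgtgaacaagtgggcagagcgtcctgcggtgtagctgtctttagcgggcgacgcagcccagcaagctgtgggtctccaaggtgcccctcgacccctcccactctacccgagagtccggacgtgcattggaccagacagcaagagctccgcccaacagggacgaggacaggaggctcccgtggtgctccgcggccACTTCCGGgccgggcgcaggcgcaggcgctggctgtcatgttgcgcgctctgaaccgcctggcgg
Mrps27: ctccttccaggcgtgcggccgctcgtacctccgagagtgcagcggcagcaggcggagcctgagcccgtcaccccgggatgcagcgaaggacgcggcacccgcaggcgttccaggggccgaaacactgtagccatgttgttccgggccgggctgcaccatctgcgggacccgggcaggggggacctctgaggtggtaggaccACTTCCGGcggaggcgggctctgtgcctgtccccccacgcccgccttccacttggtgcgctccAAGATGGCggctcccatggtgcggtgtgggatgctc

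The NRF1 letters were in 7 of 75 member promoters (9.33%) and in 1.75% of all 32851 promoters. The ETS letters were in 12 (16%) against 3.89%, and the YY1 letters in 12 (16%) against 2.75%. Any of the 3 was in 29 member promoters (38.7%) against 7.96%. Counted by gene against the 9907 protein-coding genes compared that had a promoter entry, 42.0% of members held a match and 17.1% of those genes did. Mrpl32 held both NRF1 and YY1 letters, Mrps27 both ETS and YY1 letters, and Mrpl46 none. These are matches of letters in a window, with no measure of binding. In the comparisons over all nuclei described below, the 29 members with a match and the 40 without had near medians. They were 0.28 and 0.38 against 0.20 and 0.32 (log2) for fixation, and -0.30 and -0.22 against -0.30 and -0.26 for harvest. By motif the fixation medians were less alike: 0.24 and 0.44 with NRF1 letters (7 members), 0.22 and 0.19 with ETS (12) and 0.40 and 0.52 with YY1 (12). The harvest medians were -0.32 and -0.15, -0.35 and -0.18, and -0.29 and -0.27. No difference between these groups was tested.

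Every member was detected in every library, and all 78 reached the mean of 2 CPM (UMIs of the gene per 1000000 UMIs of the library) set for a gene to be compared, as did 14260 genes in all. Their summed level was 1569, 1303, 1799 and 1520 CPM, from 80988, 67190, 118819 and 90593 UMIs. It was highest in the post-mortem methanol library and lowest in the in vivo unfixed one. The large subunit summed to 877, 723, 1027 and 871 CPM and the small subunit to 691, 580, 773 and 648 CPM. Both subunits ordered the 4 libraries in the same way.

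**Figure D1:**
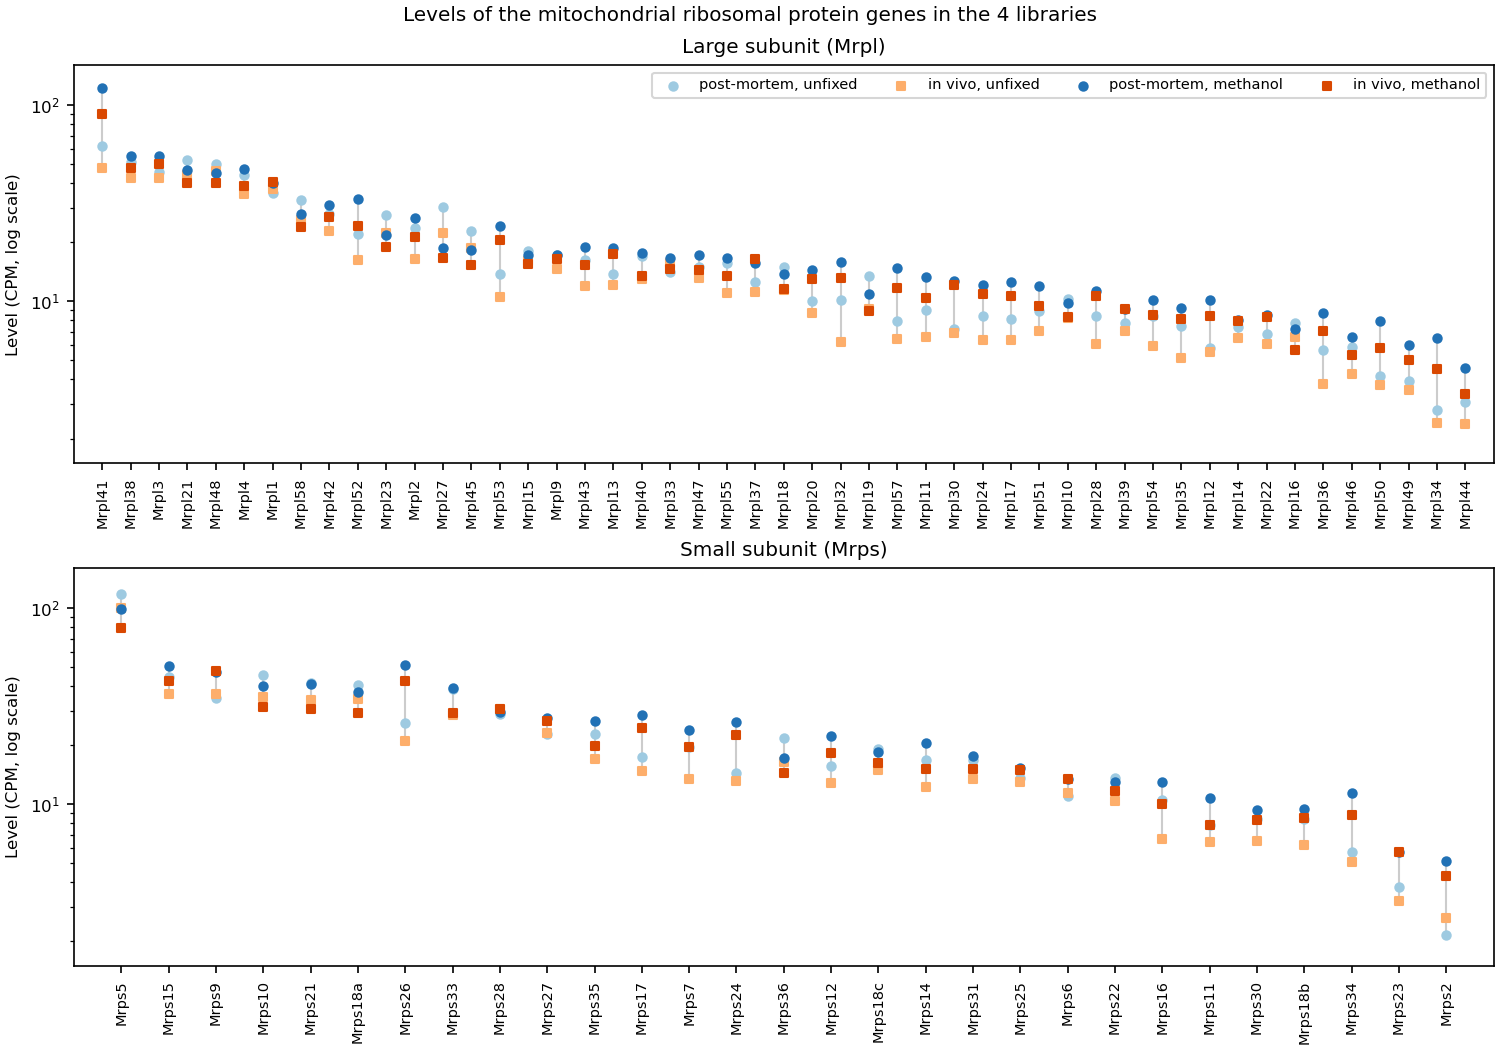
Level of each of the 78 members (y axis, CPM, log scale) in the 4 libraries (points), large subunit in the upper panel and small subunit in the lower, ordered by mean level; grey lines join the lowest and the highest library. Mrps5 and Mrpl41 stand above the rest, and Mrpl41 spans 47.6 to 123 CPM.

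The highest mean level was that of Mrps5, a core protein of the small subunit near the mRNA entry, at 118, 100, 99.5 and 79.2 CPM. Mrpl41, a large-subunit protein also described as a binding partner of BCL2, followed at 62.2, 47.6, 123 and 90.3 CPM. Both methanol libraries were above both unfixed ones for Mrpl41 and below both for Mrps5. Without these 2 genes the summed level was 1388, 1155, 1577 and 1350 CPM, in the same order of libraries.

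The next were Mrpl38 at 51.5, 42.5, 55.2 and 47.7 CPM, Mrpl3 at 45.9, 42.5, 54.9 and 50.2, and Mrpl21 at 52.7, 44.4, 46.8 and 40.2. Mrpl3 is a core protein close to the peptidyl transferase centre. Mrpl48 stood at 50.2, 46.0, 45.0 and 40.2 CPM, Mrps15 at 44.8, 36.5, 51.0 and 42.7, and Mrps9, whose bacterial counterpart reaches into the P site, at 35.0, 36.3, 47.5 and 47.7. At the low end, Mrpl44, a protein of the ribonuclease fold, stood at 3.06, 2.37, 4.56 and 3.39 CPM, and the 78 means ran from 3.34 to 99.4 CPM.

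Per kilobase of gene the order was different. Mrpl41, an intron-poor gene of 0.982 kb (chr2:24974117-24975098, minus strand), stood at 82.2 CPM per kb, and Mrpl53 was next at 19.2. Mrps5 (chr2:127587222-127606829, plus strand) was twelfth at 5.07 CPM per kb. The lowest were Mrpl33 at 0.227, Mrps6 at 0.229 and Mrps28 at 0.245 CPM per kb, all long genes. A 3' tag method need not give UMIs in proportion to gene length.

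Methanol-fixed libraries held more UMIs of the members, as a share of all UMIs, than unfixed ones. The summed level was higher by 0.20 (log2; interval 0.19 to 0.21) in the post-mortem pair and by 0.22 (0.21 to 0.24) in the in vivo pair, or 1.15-fold and 1.17-fold. Of the 78 members, 58 were higher in both pairs, and 14 were lower in both. Among all genes compared, 40.7% were higher in both pairs and 46.3% lower, against 74.4% and 17.9% of the members. The median ratio of the members was 0.23 and 0.32, and that of all genes -0.02 and -0.03. Gains were moderate: 16 members were at least 1.5-fold higher in both pairs, with 4.54% of all genes as the background, and none at least 2-fold higher (0.449%). No member was 1.5-fold lower in both pairs (7.43% of all genes) or 2-fold lower (4.21%). A panel of 12 glial genes outside the class markers moved with fixation as well: it summed to 1115, 998, 1536 and 1208 CPM, and 9 of 12 were higher in both pairs and 1 lower (medians 0.52 and 0.41). A panel of 15 neuronal genes summed to 6134, 6599, 6614 and 7088 CPM, with 8 higher and 3 lower. Their part in the members' ratio was not tested, and ratios within gated classes are given further on.

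The 16 were Mrpl12, Mrpl17, Mrpl30, Mrpl32, Mrpl34, Mrpl36, Mrpl41, Mrpl50, Mrpl53, Mrpl57, Mrps2, Mrps17, Mrps23, Mrps24, Mrps26 and Mrps34. Mrps26, a small-subunit protein with no bacterial counterpart (chr2:130563742-130568695, plus strand), had the largest ratio that both pairs shared: its level was 25.9 and 21.1 CPM unfixed and 51.5 and 42.4 CPM after methanol. The ratios were 0.99 (0.90 to 1.08) and 1.01 (0.90 to 1.11) log2, and the unfixed and methanol libraries did not overlap. Mrpl41 was higher by 0.98 (0.92 to 1.04) and 0.92 (0.85 to 0.99).

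Mrpl34, among the smallest proteins of the large subunit, was low throughout, at 2.79, 2.40, 6.53 and 4.51 CPM, with ratios of 1.22 (0.95 to 1.51) and 0.90 (0.60 to 1.23). Mrpl57 stood at 7.90, 6.42, 14.9 and 11.7 CPM, with 0.91 and 0.86. Mrpl30 stood at 7.20, 6.92, 12.8 and 12.2 CPM, with 0.82 and 0.81, and Mrpl53 at 13.8, 10.6, 24.2 and 20.6 CPM, with 0.81 and 0.96. In each of these 4 genes both methanol libraries lay above both unfixed ones. Mrps2 and Mrpl32, singled out after their values were seen, had less even pairs: 1.26 and 0.71 for Mrps2, and 0.65 and 1.08 for Mrpl32.

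Among the 14 lower members, Mrpl27 differed most. It is a core protein of the large subunit whose bacterial counterpart reaches the peptidyl transferase centre, and its level was 30.2, 22.4, 18.7 and 16.6 CPM. Its ratios were -0.69 (-0.80 to -0.58) and -0.44 (-0.56 to -0.32), and both methanol libraries lay below both unfixed ones.

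Mrpl45, which holds the ribosome to the inner membrane, stood at 23.0, 18.7, 18.3 and 15.3 CPM, with ratios of -0.33 and -0.29. Mrpl23, which lines the exit of the peptide tunnel, stood at 27.5, 22.3, 21.8 and 19 CPM, with -0.33 and -0.23. Mrps5 had -0.25 and -0.34, and Mrps10, at 45.6, 35.2, 40.1 and 31.2 CPM, had -0.19 and -0.17. For Mrpl45, Mrpl23 and Mrps5 both methanol libraries lay below both unfixed ones, while for Mrps10 the 2 kinds of library overlapped across harvests.

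Some symbols name proteins with other roles. Mrps36 encodes a subunit of the alpha-ketoglutarate dehydrogenase complex and is no longer counted as a ribosomal protein; it was lower in both pairs, at -0.33 (-0.45 to -0.21) and -0.19 (-0.33 to -0.05), from 21.7, 16.3, 17.2 and 14.4 CPM. Mrpl58 encodes ICT1, a peptidyl-tRNA hydrolase that rescues stalled ribosomes and is also built into the large subunit. It stood at 32.8, 26.1, 28.0 and 23.9 CPM and had ratios of -0.23 and -0.13. The 3 paralogs of the bacterial protein S18, which take different places in the ribosome, differed from one another: Mrps18a (40.4, 34.5, 37.2 and 29.2 CPM) had -0.12 and -0.24, Mrps18b (8.37, 6.19, 9.5 and 8.54 CPM) 0.18 and 0.46, and Mrps18c (19.2, 14.9, 18.4 and 16.3 CPM) -0.06 and 0.13.

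**Figure D2:**
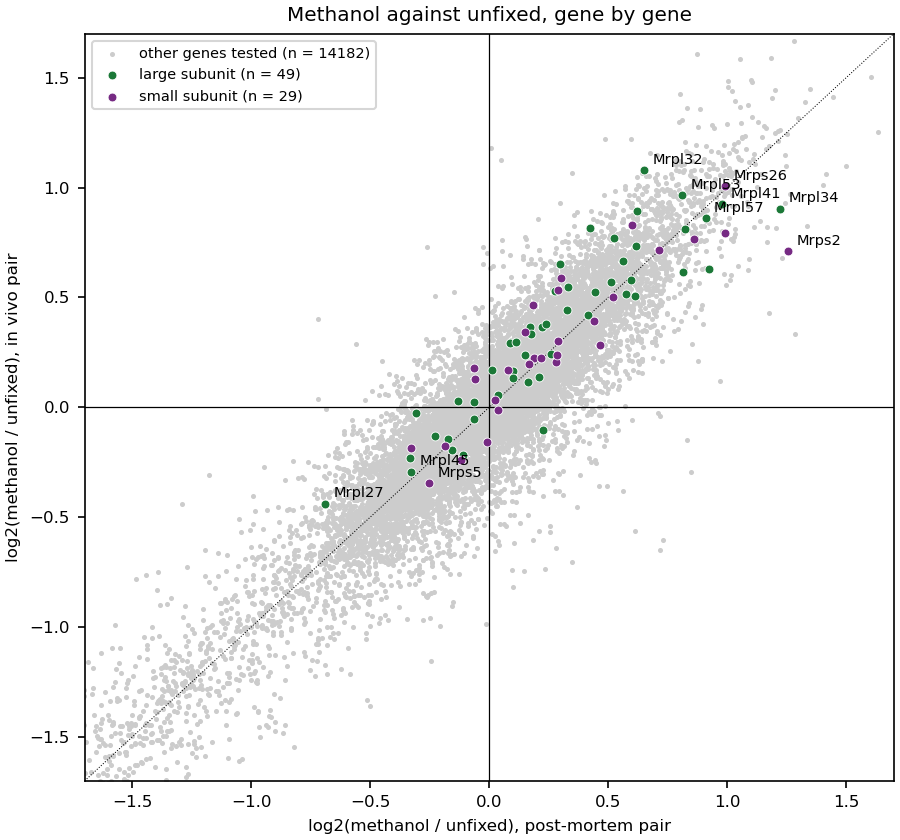
Log2 ratio of methanol over unfixed in the post-mortem pair (x axis) and the in vivo pair (y axis) for the 49 large-subunit and 29 small-subunit members and, in grey, the other 14182 genes compared; 233 of those lie outside the axes, and the dotted line marks equal ratios. Most members lie in the upper right part, and Mrpl27 lies farthest to the lower left.

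Both subunits shared the pattern. In the large subunit 37 of 49 members were higher in both pairs and 9 lower, with medians of 0.24 and 0.37, and in the small subunit 21 of 29 and 5, with 0.22 and 0.24. Members whose number matches a bacterial protein (44 genes) had medians of 0.27 and 0.30, and those with higher numbers (34 genes) 0.22 and 0.34. Across the 78 members the ratio of one pair and that of the other, which share no library, had a Pearson r of 0.90 and a Spearman rho of 0.93; members are not independent, and no p is given.

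The ratio moved with gene structure, in the members as in other genes. Of the 26 members of up to 5 kb, 24 were higher in both pairs and 1 lower, with medians of 0.54 and 0.60. Of the 1003 protein-coding genes of that length 854 were higher and 77 lower, with medians of 0.45 and 0.56. Between 5 and 15 kb the 37 members had medians of 0.15 and 0.20, beside 0.09 and 0.16 for 2671 genes. Over 15 kb the 15 members had 0.22 and 0.21, beside -0.05 and -0.07 for 8810 genes. All 13 intron-poor members were higher in both pairs, with medians of 0.81 and 0.79, as were 461 of the 572 intron-poor protein-coding genes, with medians of 0.41 and 0.51. The 65 other members had 0.18 and 0.24, beside -0.01 and -0.01 for 11912 genes. Across members Pearson's r with log10 length was -0.41 and -0.50 (rho -0.44 and -0.54), and with log10 mean CPM -0.40 and -0.44 (rho -0.42 and -0.46). Across the 12484 protein-coding genes r was -0.26 and -0.37 with length, but only -0.04 and -0.04 with mean CPM. The length limits were chosen after values had been seen, and the part of length in the result was not tested beyond these values.

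**Figure D3:**
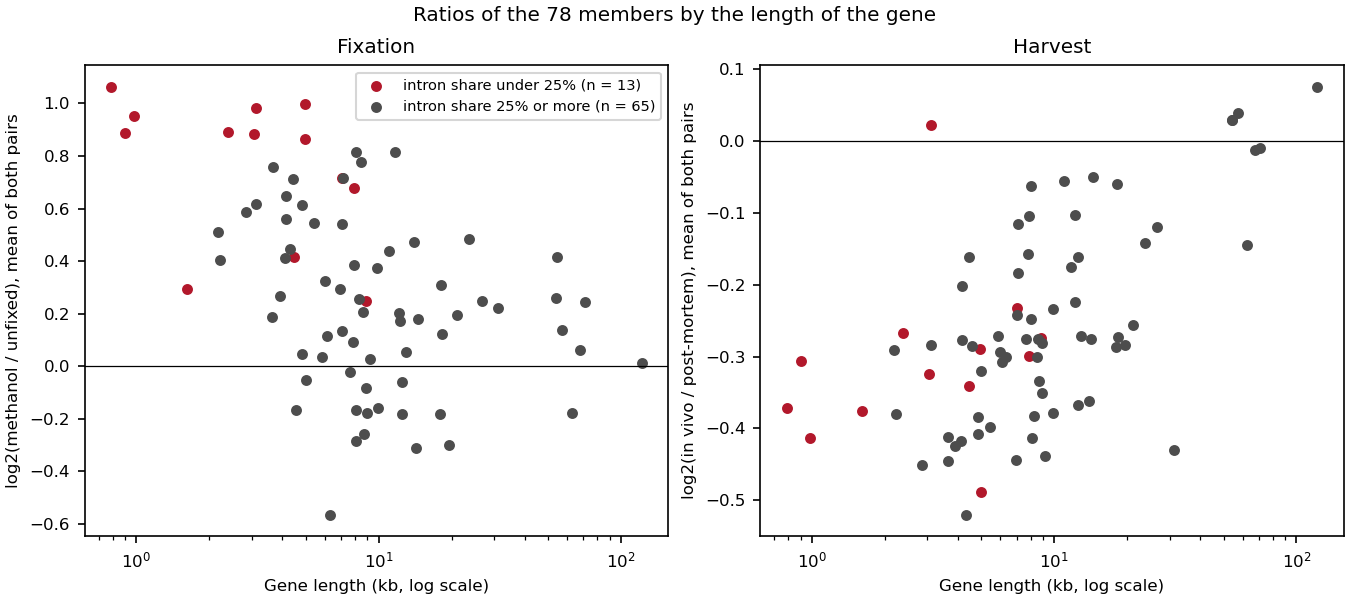
Mean log2 ratio of both pairs (y axes; fixation on the left, harvest on the right) against gene length (x axes, kb, log scale) for the 78 members, with the 13 intron-poor members in red. On the left the 3 shortest members, Mrpl34, Mrpl53 and Mrpl41, are among the highest while Mrpl43, the next in length, is not. On the right the 4 members above 0 in both pairs are all 54.0 kb or longer. Mrpl48, Mrpl33 and Mrps27 are that long too and are not above 0 in both pairs. Mrps2, intron-poor, has a mean above 0 from pairs of opposite sign.

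Neighbours that start beside a member had lower median ratios than the members. In 27 pairs a member and a protein-coding neighbour could be compared, with starts a median of 126 bp apart. The members had medians of 0.28 and 0.42 and the neighbours -0.03 and -0.03. The neighbours were thus near all genes compared (-0.02 and -0.03), and the values show no trait particular to a shared start. The neighbour was below its member in both pairs of libraries in 19 of the 27 and above it in 6, and in 1 of them, Mrps11 and Mrpl46, the neighbour is itself a member. Across these pairs r was 0.18 and -0.06 (rho 0.17 and -0.03), given as a description. Sars2 had -0.34 and -0.28 where Mrps12 had 0.52 and 0.50, and Twnk had -0.27 and -0.13 where Mrpl43 had 0.22 and 0.37. Ndufs6 had 0.36 and 0.47 beside 0.62 and 0.90 for Mrpl36, and Ndufb5 0.26 and 0.22 beside 0.21 and 0.14 for Mrpl47. Fau, which encodes a cytosolic ribosomal protein and starts 59 bp from Mrpl49, had 0.74 and 0.86 beside 0.61 and 0.51.

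The widest split was at Mrps26, whose start lies 7 bp from that of the antisense gene 4930473A02Rik. The antisense gene stood at 23.8 and 20.5 CPM unfixed and at 5.45 and 4.86 CPM after methanol, ratios of -2.12 and -2.07, while Mrps26 was 1.99-fold and 2.01-fold higher. At Mrps21 the antisense gene C920021L13Rik, which starts 3 bp away, stood at 55.4, 44.7, 29.5 and 21.8 CPM, ratios of -0.91 and -1.04, while Mrps21 had -0.01 and -0.16. Both neighbours were chosen after their values were seen, and without the strand setting the UMIs of such pairs are uncertain. The 30 members with an opposite-strand overlap had medians of 0.20 and 0.26 and the 48 without 0.29 and 0.39. All genes split the same way, with -0.11 and -0.11 for 5866 with an overlap and 0.03 and 0.03 for 8385 without.

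The rest of the mitochondrial translation machinery was less uniform, and its counts stand beside the 40.7% of all genes higher and 46.3% lower. Of 5 ribosome subunits with other names, 4 were higher in both pairs, among them Chchd1 (9.90, 8.51, 17.6 and 13.9 CPM; 0.83 and 0.71) and Aurkaip1 (0.74 and 1.02). Dap3, which binds GTP in the small subunit, was lower, at 34.5, 36.5, 27.6 and 27.2 CPM, with -0.32 and -0.42. Of 19 assembly factors compared, 13 were higher and 3 lower, with medians of 0.17 and 0.28; Fastkd2 had 0.46 and 0.68 and the pseudouridine synthase Trub2 -0.50 and -0.43. Of 15 translation factors 8 were higher and 4 lower, with medians of 0.07 and 0.15. Slirp, a partner of Lrpprc in holding mitochondrial mRNAs, had 1.22 and 1.26 from 12.6, 8.75, 29.2 and 20.9 CPM, and Tufm, the elongation factor, 0.75 and 0.89, while Gfm2 had -0.22 and -0.21.

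The mitochondrial tRNA synthetases leaned the other way: 4 of 17 were higher in both pairs and 12 lower, with medians of -0.16 and -0.09. Yars2 had 0.50 and 0.70 and Iars2 -0.38 and -0.45. The transcripts that this ribosome translates were lower too. For all 9 mitochondrially encoded genes compared both ratios were negative (medians -0.47 and -0.51), and mt-Cytb stood at 67.2, 68.7, 41.7 and 42.1 CPM. Nuclei hold no mitochondria, and nuclei with over 5% of UMIs from these genes had been left out. By contrast 76 of 81 cytosolic ribosomal protein genes were higher (medians 0.61 and 0.82; Rpl12 1.13 and 1.30) and 4 lower (Rps27 -1.03 and -0.81). Of 77 nuclear-encoded respiratory chain genes 65 were higher and 8 lower, with medians of 0.36 and 0.48; Cox5b had 1.00 and 0.98 and Sdhb -0.31 and -0.34. No difference between these lists and the members was tested.

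In vivo harvest went with a lower level of the members in both the unfixed and the methanol pair. The summed level differed by -0.27 (log2; -0.28 to -0.25) in the unfixed pair and by -0.24 (-0.26 to -0.23) in the methanol pair, or 0.831-fold and 0.844-fold. Of 78 members 69 were lower in both pairs and 4 higher, where 60.7% of all genes were lower and 24.3% higher. The medians were -0.30 and -0.25, and -0.12 and -0.11 over all genes. None was 1.5-fold lower in both pairs (2.29% of all genes) or 1.5-fold higher (1.96%), and none 2-fold lower (0.379%) or 2-fold higher (0.477%). The glial panel was lower too (10 of 12 genes lower in both pairs and 1 higher, medians -0.25 and -0.36), while the neuronal panel was higher in sum, with 7 of 15 genes higher and 7 lower; their part was not tested. The 2 harvest pairs share no library with each other, but each shares its libraries with the fixation pairs.

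The largest differences that both pairs shared were moderate. Mrpl52 stood at 22.2, 16.3, 33.5 and 24.3 CPM, with -0.44 (-0.57 to -0.31) and -0.46 (-0.56 to -0.36). Mrps14 stood at 16.7, 12.2, 20.4 and 15.1 CPM, with -0.45 and -0.44. Mrps33 stood at 38.6, 28.4, 39.3 and 29.1 CPM, with -0.44 (-0.54 to -0.35) and -0.43 (-0.52 to -0.35).

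Mrps33 thus separated the libraries by harvest alone, since its fixation ratios were 0.02 and 0.03. Mrps35 stood at 23.0, 17.0, 26.7 and 19.9 CPM, with -0.43 and -0.43. Mrps16, whose human counterpart was an early gene linked to a mitochondrial translation defect, stood at 10.5, 6.65, 13.0 and 10.0 CPM, with -0.66 and -0.38. Mrpl41 had -0.39 and -0.44, so its highest level was in the post-mortem methanol library.

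The 4 members higher in both pairs were close to even, and the interval of each ratio included 0. Mrps28 stood at 28.7, 30.8, 29.4 and 30.5 CPM, with 0.10 and 0.05, and Mrpl1, which forms a mobile stalk of the large subunit, at 35.8, 37.4, 40.0 and 40.5 CPM, with 0.06 and 0.02. Mrps6 had 0.05 and 0.01 and Mrps9 0.05 and 0.00. When each gated class was given the same weight in every library, Mrps28, Mrps6 and Mrpl1 were lower in 1 pair, at -0.21 (methanol), -0.25 (methanol) and -0.05 (unfixed). All 4 genes are 54.0 kb or longer. So are Mrpl48 (-0.12 and -0.16), Mrpl33 (0.15 and -0.18) and Mrps27 (0.03 and -0.05), which were not higher in both pairs. Scaled by the median of ratios, 7 members were higher in both pairs, and the medians of all genes compared were -0.04 and -0.03. With Malat1 and the mitochondrial genes out of the total there was 1 (all genes -0.16 and -0.15). With equal class weights there were 2 (all genes -0.07 and -0.05). The share of all genes higher under these settings is not given here.

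**Figure D4:**
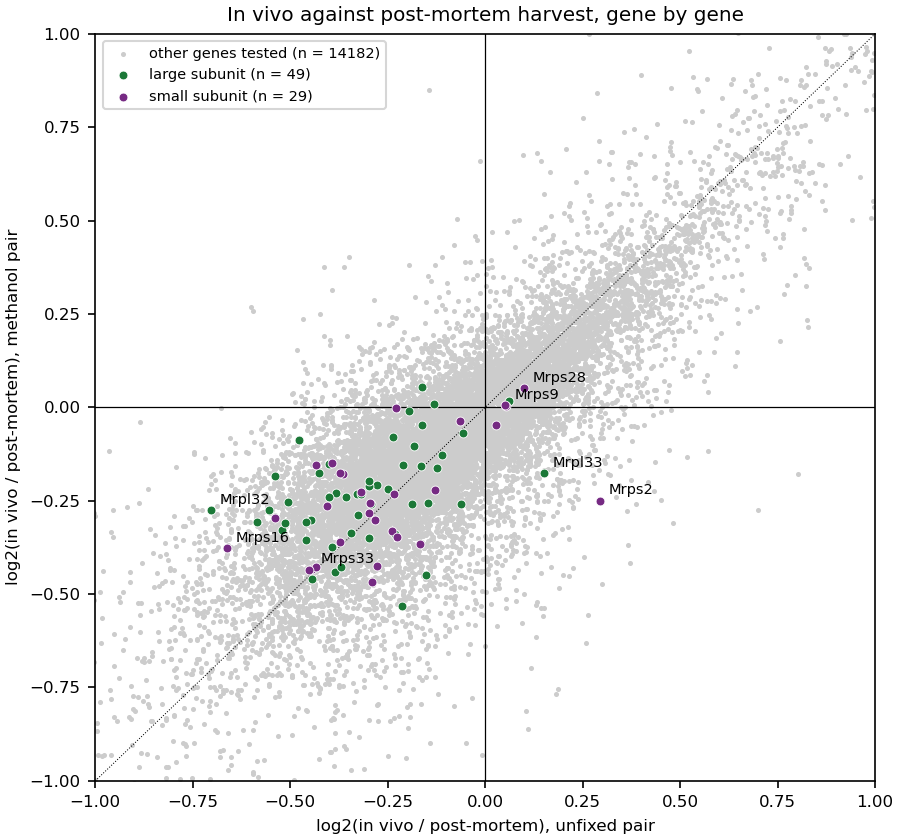
Log2 ratio of in vivo over post-mortem harvest in the unfixed pair (x axis) and the methanol pair (y axis), with members in colour and the other 14182 genes compared in grey; 245 of those lie outside the axes. Most members lie in the lower left part, between -0.53 and 0.05 in the methanol pair.

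Length moved with this ratio as well. Members of up to 5 kb had medians of -0.40 and -0.31 (25 of 26 lower in both pairs, beside 867 of 1003 protein-coding genes), those from 5 to 15 kb -0.30 and -0.22, and those over 15 kb -0.12 and -0.13. Protein-coding genes of the same lengths had -0.36 and -0.26, -0.26 and -0.19, and -0.04 and -0.06. Across members r with log10 length was 0.51 and 0.53 (rho 0.48 and 0.47). The 13 intron-poor members had medians of -0.34 and -0.28 and the other 65 -0.29 and -0.23. The ratios of the 2 pairs had an r of 0.48 across members (rho 0.47).

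In other lists of the pathway the harvest counts stand beside the 60.7% of all genes that were lower in both pairs (medians -0.12 and -0.11). Of the assembly factors 18 of 19 were lower in both pairs (medians -0.37 and -0.25; Mtg1 -0.57 and -0.44), and of the translation factors 14 of 15 (-0.25 and -0.25; Tsfm -0.38 and -0.29). Of 77 respiratory chain genes 75 were lower (-0.29 and -0.18). Of 81 cytosolic ribosomal protein genes 70 were lower, with a median of -0.30 in the unfixed pair and, near that of all genes, -0.11 in the methanol pair. The tRNA synthetases (12 of 17 lower, -0.13 and -0.12; Fars2 higher by 0.16 and 0.11) and the mitochondrially encoded genes (6 of 9 lower; mt-Cytb higher by 0.03 and 0.01) were near the background of all genes.

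Nuclei were next sorted into classes by 10 marker genes a class: a nucleus was placed in a class when at least 3 of its markers were seen and at least 2 more than of any other class. Of the kept nuclei 63.0%, 55.4%, 78.9% and 78.3% were placed, so the share placed moved with fixation and depth, as did the share near the limit (57.0%, 63.4%, 38.2% and 34.6% of excitatory nuclei and 9.18%, 18.9%, 1.79% and 2.12% of oligodendrocyte nuclei). In 7 classes every library held at least 100 nuclei, while endothelial nuclei numbered 11 to 29 a library and were not compared. Among the 10 leading genes of each class were between 1 and 7 of its own markers and none of another class. The gate used these markers, so this is no separate check of the classes. Markers of other classes were still present. Excitatory nuclei held 793 to 1175 CPM of medium spiny markers beside 1295 to 1447 of their own. Medium spiny nuclei held 751 to 1007 CPM of astrocyte markers beside 6915 to 8219 of their own. Markers are named here as a gate, and the classes are groups of nuclei that pass it.

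The members were lowest in excitatory neurons and medium spiny neurons and higher in the other classes. Excitatory nuclei (marked by Slc17a7 and Neurod6 among others) had a summed level of 1345, 1098, 1629 and 1378 CPM, and medium spiny nuclei of the striatum (Ppp1r1b, Adora2a, Drd2) 1368, 1250, 1596 and 1531. Other GABA neurons (Gad1, Lhx6) had 1843, 1485, 2041 and 1732 CPM, which was 1.25 to 1.37 times the excitatory level of the same library. Cytosolic ribosomal protein genes were also higher there in every library, at 1360 to 2531 CPM against 929 to 1782 in excitatory nuclei. The order of these 2 classes was thus not particular to the members. Astrocytes (Aqp4, Gja1) had 1847, 1752, 1980 and 1875 CPM, or 1.22 to 1.60 times.

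Oligodendrocytes (Mog among others) had 1797, 1695, 1833 and 1699 CPM, or 1.13 to 1.54 times, their precursors (Pdgfra, Cspg4) 1604, 1380, 1841 and 1651 CPM, and microglia (Csf1r, P2ry12) 2168, 1733, 2048 and 1705 CPM, or 1.24 to 1.61 times. Each of these but the medium spiny neurons, which were 0.980 times in the post-mortem methanol library, was above excitatory neurons in all 4 libraries. Neighbours in this order overlapped across libraries. Median UMIs per nucleus ran the other way, from 5745.5 to 13408 in excitatory nuclei against 776 to 1068 in microglia. A panel of 15 neuronal genes outside the gate, at 7952 to 8629 CPM in excitatory nuclei, still gave 964 to 2455 CPM in oligodendrocytes, 1215 to 3660 in microglia and 837 to 1930 in astrocytes. Their part in the class levels was not tested.

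**Figure D5:**
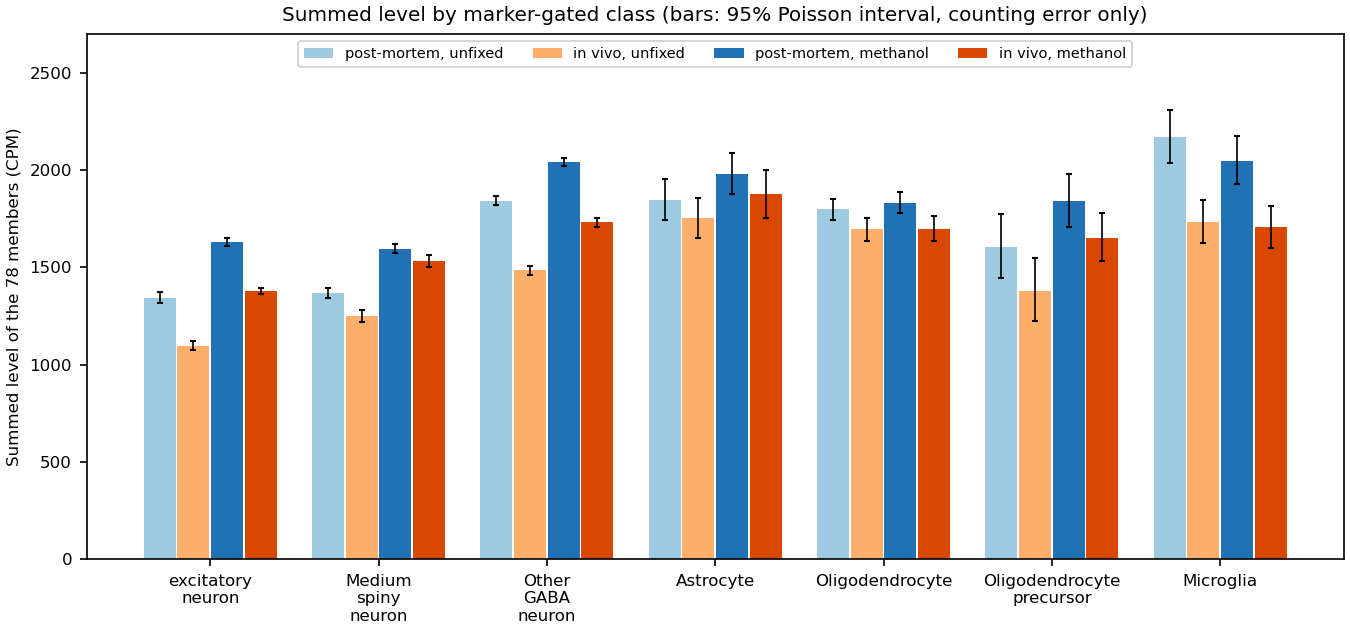
Summed level of the 78 members (y axis, CPM) in 7 marker-gated classes, 1 bar a library, with 95% Poisson intervals that cover counting error only. In every class but microglia both methanol bars are above the unfixed bars of the same harvest. In astrocytes and oligodendrocytes the intervals of these ratios include 0, and in oligodendrocytes the 4 bars lie between 1695 and 1833.

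Single members were set beside excitatory neurons by asking whether all 4 libraries of a class lay above, or below, all 4 of the excitatory class. In other GABA neurons 17 of 78 members lay above (26.6% of all genes) and none below (8.99%). In medium spiny neurons 4 of 76 lay above (14.8%), namely Mrpl10, Mrpl23, Mrps28 and Mrps33, and Mrpl48 lay below (17.2%). In oligodendrocytes 23 of 60 lay above (39.4%), and Mrpl3 and Mrps27 below (20.8%). In astrocytes 4 of 11 members with enough UMIs lay above (43.2%), namely Mrpl18, Mrps5, Mrps9 and Mrps33, and none below (16.7%). In microglia 4 of 9 lay above (52.4%), namely Mrpl52, Mrps21, Mrps28 and Mrps33, and none below (17.1%). These shares above lie near or under the background of all genes and are no result about the members as a group.

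Mrps5 stood at 164, 131, 134 and 110 CPM in other GABA neurons, 97.4, 83.3, 80.2 and 69.0 in excitatory neurons and 99.0, 88.7, 82.2 and 64.1 in medium spiny neurons. All 4 libraries of other GABA neurons were above those of the other neuronal classes. Mrpl48 stood at 37.6, 34.4, 30.2 and 34.6 CPM in medium spiny neurons, below 54.4, 46.3, 49.1 and 42.0 in excitatory ones.

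The fixation difference of the members was present in each neuronal class. The summed level of excitatory neurons was higher after methanol by 0.28 (0.24 to 0.31) and 0.33 (0.29 to 0.36), of medium spiny neurons by 0.22 (0.19 to 0.25) and 0.29 (0.25 to 0.34), and of other GABA neurons by 0.15 (0.12 to 0.17) and 0.22 (0.19 to 0.25). Precursors had 0.20 (0.02 to 0.38) and 0.26 (0.06 to 0.46). Astrocytes had 0.10 (-0.01 to 0.21) and 0.10 (-0.03 to 0.23), oligodendrocytes 0.03 (-0.03 to 0.09) and 0.00 (-0.07 to 0.08), and microglia -0.08 (-0.21 to 0.04) and -0.02 (-0.15 to 0.11), all with intervals that include 0. The intervals of oligodendrocytes and microglia lay below those of the 3 neuronal classes. Those of astrocytes lay below excitatory neurons in both pairs and below medium spiny neurons in the in vivo pair. They overlapped medium spiny neurons in the post-mortem pair and other GABA neurons in both pairs. Scaled by the median of ratios, oligodendrocytes had 0.15 and 0.12: there the median of all genes lies at -0.12 and -0.12 when scaled to the total. With the gate read at 1000 UMIs the in vivo pair of microglia turned to 0.22, and with doublets kept to 0.11.

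At least 1.5-fold higher in both pairs were 21 of 78 members in excitatory neurons (6.61% of all genes), 16 of 76 in medium spiny neurons (6.01%) and 13 of 78 in other GABA neurons (3.89%). None of them was 1.5-fold lower in those classes, where 6.65%, 8.03% and 7.08% of all genes were. In oligodendrocytes 1 of 60 members, Mrpl17, was 1.5-fold higher (2.66%) and none lower (10.5%). In astrocytes none of 11 was higher (4.9%) or lower (6.63%). In microglia none of 9 was higher (4.22%), and Mrpl41 and Mrps10 were lower (5.02%).

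Over the 60 members that passed the limits in all 4 of the larger classes, the medians were 0.22 and 0.31 in excitatory neurons, 0.16 and 0.27 in medium spiny neurons, 0.15 and 0.26 in other GABA neurons, and 0.11 and -0.02 in oligodendrocytes. Of these 60, 42, 37 and 40 were higher in both pairs in the neuronal classes and 20 in oligodendrocytes. Among all genes compared in each class these were 5241 of 13204 in excitatory neurons, 4483 of 11959 in medium spiny neurons, 5260 of 14102 in other GABA neurons and 2359 of 8941 in oligodendrocytes, so the background was lower in oligodendrocytes as well. Differences between classes were not tested. The neuronal panel outside the gate was lower after methanol in oligodendrocytes (2269 and 2455 CPM unfixed, 964 and 1324 CPM fixed), in astrocytes (1552 and 1930 against 837 and 905) and in microglia (2898 and 3660 against 1215 and 2926); its part in the glial ratios was not tested.

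The harvest difference varied in size by class. It was -0.29 and -0.24 in excitatory neurons, -0.31 and -0.24 in other GABA neurons and -0.32 and -0.26 in microglia, with intervals below 0. In medium spiny neurons it was -0.13 (-0.17 to -0.09) and -0.06 (-0.10 to -0.02), and in oligodendrocytes -0.08 (-0.15 to -0.02) and -0.11 (-0.18 to -0.04). In astrocytes it was -0.08 and -0.08 with intervals that include 0, and in precursors -0.22 (-0.44 to 0.01) and -0.16 (-0.31 to -0.01).

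When each gated class was given the same weight in every library, the summed fixation ratio was 0.12 and 0.16, and 3 members in place of 16 were 1.5-fold higher in both pairs. With a mean of at least 10 CPM asked of each gene, 52 members were compared and 7 were 1.5-fold higher. The median ratios of all genes compared were -0.05 and -0.03 with equal class weights and -0.02 and -0.02 from 10 CPM. The share of all genes 1.5-fold higher under either setting is not given here.

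In excitatory neurons Mrpl57 stood at 5.77, 3.83, 15 and 10.4 CPM, with 1.37 (0.90 to 1.89) and 1.42 (0.88 to 2.05), and Mrpl41 at 50.6, 39.1, 131 and 92.6 CPM, with 1.37 (1.21 to 1.54) and 1.24 (1.07 to 1.43). In both genes the methanol libraries lay far above the unfixed ones. Mrpl27 had -0.44 and -0.34 there, and Mrps10 -0.33 and -0.29.

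In medium spiny neurons Mrpl53 stood at 11, 8.31, 24.8 and 25.4 CPM, with 1.16 and 1.60, and Mrpl57 had 1.16 and 1.20, while Mrps5 had -0.27 and -0.47 and Mrpl58 -0.53 and -0.24. In other GABA neurons Mrpl34 had 1.42 and 1.33, from 32, 24, 128 and 79 UMIs, and Mrps26, at 32.9, 22.9, 61.9 and 49.6 CPM, had 0.91 and 1.12. There Mrpl27 had -0.75 and -0.39, and Mrps5 -0.30 and -0.25.

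In oligodendrocytes Mrpl17 stood at 11.4, 11.3, 19.6 and 18.3 CPM, with 0.76 (0.07 to 1.52) and 0.68 (-0.14 to 1.55), and Mrpl53 had 0.49 and 0.79. Mrpl27 had -0.58 and -0.44, the sign it had in the neuronal classes, and Mrpl37 -0.38 and -0.54, with intervals that span 0. In astrocytes the ratios of Mrps26 (0.43 and 0.20) and Mrps5 (-0.16 and -0.04) also had intervals that span 0.

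In microglia Mrpl52 had 0.45 and 0.44 and Mrps15 0.06 and 0.14, from 22 to 53 UMIs a library. Mrpl41 went the other way from neurons: it stood at 83.7, 92.4, 49.1 and 35.9 CPM, from 39, 50, 26 and 20 UMIs, with -0.76 (-1.55 to -0.02) and -1.34 (-2.19 to -0.59). Mrps10 had -1.02 (-1.90 to -0.21) and -0.67 (-1.47 to 0.08). In oligodendrocytes Mrpl41 stood at 73.3, 98.3, 81.4 and 55.4 CPM, with 0.15 and -0.82. In astrocytes Mrpl41 stood at 85.6, 75.4, 88.1 and 49.6 CPM, and in precursors at 63.0, 53.4, 50.9 and 69.3 CPM, from 11 to 30 UMIs. In each of these 4 classes its level was above that of excitatory neurons in both unfixed libraries and below it in both methanol libraries.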

How the data were processed

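Single-nucleus libraries from mouse brain were analysed, 1 for each of 4 groups, and no test across libraries was made. The authors deposited raw UMI counts per gene and barcode, per the labels and the file headers; the reads were placed on mm10, per the submitters' processing notes, and the counter and its strand setting are not given in the sources used here. Kept nuclei had at least 500 UMIs, at least 300 genes and no more than 5% mitochondrial UMIs, and doublets marked by Scrublet (scanpy 1.11.5, expected rate 6%, seed 7) were removed.

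Counts were summed over nuclei by library and by class and given as CPM (per 1000000 counts of the library or class). Ratios are log2 of CPM with 0.5 counts added, with exact conditional 95% intervals from scipy 1.17.1. Summed levels have 95% Poisson intervals. A gene was compared from a mean of 2 CPM and, within a class, from 100 UMIs in all; a class needed 100 nuclei and 100000 UMIs a library, and counts of members in a class needed 5 members. The calculation was tested on simulated data. Gene structure came from GENCODE vM21 on GRCm38 and promoters from RefSeq on GRCm38.p6. No column of other samples was in the files (0).

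The named members were the 8 highest by mean CPM, up to 6 per direction with the largest ratio shared by both pairs for fixation and for harvest, up to 2 per direction in each class for fixation, the Mrps18 paralogs, Mrps36, Mrpl58 and members whose ratios differed in sign between groups; other lists gave up to 3 genes per direction. Mrps2, Mrpl32, Mrps27, Mrps11, Mrpl46, Mrpl44, the neighbouring genes and the full lists of counted members were added after their values were seen. The members and lists were chosen with earlier results of these data known. Alternatives changed the scaling, the filters, doublets, depth, the gate and class weights.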

Additional observations from a re-analysis of the deposited data

Results flagged for a closer look

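Mrpl33, which stands at the lowest level per kilobase, had harvest ratios of opposite sign in unfixed and methanol nuclei, 0.15 and -0.18 (log2), with intervals that do not include 0. Mrpl33 overlaps Rbks on the opposite strand. The difference was not tested.

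Mrpl41 had fixation ratios of opposite sign in neurons and microglia. They were 1.37 and 1.24 in excitatory neurons, 1.10 and 1.05 in medium spiny neurons, and 0.72 and 0.94 in other GABA neurons, against -0.76 and -1.34 in microglia, where each library held 20 to 50 UMIs of the gene. The neuronal panel outside the gate was also lower after methanol in microglia, as given above, and its part in the ratio of Mrpl41 was not tested. The difference between classes was not tested.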

How the results depend on the processing

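Of 216 alternative values of the main comparisons 166 moved by less than counting error or by less than 1.5 times for counts, 48 moved by more and 2 changed sign; of the values of single genes 382 stayed within that, 49 moved and 3 changed sign.

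The summed fixation ratio kept its direction over all nuclei, at 0.23 and 0.25 with median-of-ratios scaling, 0.15 and 0.26 with nuclei thinned to 1000 UMIs, 0.115 and 0.155 with equal class weights, and 0.228 and 0.242 without genes that overlap on the opposite strand; the in vivo pair was 0.243 in nuclei of at least 1000 UMIs and 0.245 with doublets kept and with every barcode. The summed harvest ratio was -0.187 and -0.165 with median-of-ratios scaling, -0.304 and -0.194 with thinning, -0.204 and -0.164 with equal class weights, and -0.307 and -0.276 with Malat1 and mitochondrial genes out of the total; the methanol pair was -0.226 with doublets kept and with every barcode, and -0.262 without overlaps.

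From a mean of 10 CPM, 34 of 52 members were higher with fixation, 7 of them 1.5-fold, and 45 lower with in vivo harvest. Without overlaps (48 members) the counts were 38 higher and 8 lower with fixation and 41 lower with harvest. Thinning gave 9 lower with fixation and 1 lower by 1.5-fold with harvest. Equal class weights gave 3 higher by 1.5-fold, and 2 higher with harvest, with Mrpl1 at -0.048 (unfixed) and Mrps28 at -0.21 and Mrps6 at -0.25 (methanol). Median-of-ratios scaling gave 7 higher with harvest, and leaving Malat1 and mitochondrial genes out of the total 1. Shares of all genes under these settings are not given here, so these counts have no background beside them.

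Within classes, median-of-ratios scaling gave fixation ratios of 0.182 in other GABA neurons (post-mortem) and 0.147 and 0.122 in oligodendrocytes, where doublets kept gave 0.099 and 0.096. The in vivo pair of microglia changed sign, to 0.222 with the gate read at 1000 UMIs and to 0.112 with doublets kept. Members above excitatory neurons numbered 1 in medium spiny neurons, 9 in other GABA neurons, 14 in oligodendrocytes and 0 in microglia with the gate read at 1000 UMIs, and 7 in microglia with doublets kept. Members below numbered 2 in medium spiny neurons, 1 in astrocytes and 1 in oligodendrocytes with doublets kept, and 1 in oligodendrocytes with a stricter gate. Neither the members compared nor the share of all genes under these settings is given here. These counts above and below are therefore no result about the members as a group. Apart from the filters and overlaps, which leave fewer members, the cause was not tested. Depth limits the glial classes most: 11 members in astrocytes, 9 in microglia and 1 in oligodendrocyte precursors had enough UMIs to be compared.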
